A study of Homo sapiens with 6 samples.

Results

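The SOX genes encode transcription factors that bind DNA through a shared high-mobility-group (HMG) domain, and 10 of them with roles in neural development were described here: SOX1, SOX2, SOX3, SOX4, SOX5, SOX6, SOX8, SOX9, SOX11 and SOX21. A member was any transcript cluster of the array whose single gene symbol was 1 of these 10 names, and where a gene had several clusters the one with the highest mean over the 6 arrays would have been taken. All 10 genes had a cluster, and each had exactly 1, among 14884 named genes and 53617 clusters on the array. The RNA came from D283, an established line of medulloblastoma cells, a childhood tumor of the cerebellum, which resembles both Group 3 and Group 4 tumors and was grown as floating tumorspheres with epidermal and basic fibroblast growth factors. In the OTX2 KD group (labelled OTx2KD-9931, n = 3 arrays) the cells received the siRNA s9931 against OTX2, and in the scramble group (n = 3 arrays) they received a non-silencing siRNA. All arrays come from 1 cell line and the knockdown from 1 siRNA sequence, so effects of that siRNA on other transcripts cannot be told apart from those of OTX2.

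Members of the SOX family are sorted into groups by the sequence of the HMG domain, and genes of 1 group often act alike. The SOXB1 factors SOX1, SOX2 and SOX3 keep neural progenitors undifferentiated, and the SOXB2 factor SOX21 counteracts them in the chick neural tube. The SOXC factors SOX4 and SOX11 are produced in precursors committed to become neurons and activate neuronal genes, the SOXD factors SOX5 and SOX6 lack an activation domain of their own and modulate other SOX proteins, and the SOXE factors SOX8 and SOX9 act in glial specification, neural stem cells and, for SOX9, cartilage.

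After OTX2 knockdown, both SOXC members rose, both SOXE members fell, 1 SOXD member rose, and the 4 members of the SOXB groups did not pass the test. SOX12 (SOXC, log2 fold change -0.26) and SOX10 (SOXE, 0.20), which were not members, did not pass and pointed the other way from their groups. At an adjusted p below 0.05 (limma, Benjamini-Hochberg over all clusters), 3 of the 10 members were higher in OTX2 KD (SOX4, SOX5 and SOX11) and 2 were lower (SOX8 and SOX9). With a 2-fold limit added, 2 were higher (SOX5 and SOX11) and 1 was lower (SOX9). SOX5 was under this limit after median centring (log2 fold change 0.98) and after repeated quantile normalization (0.98), and SOX9 without scramble replicate 1 (-0.97). Among all clusters 27.9% passed without the fold limit, 14.8% as higher and 13.1% as lower, and 6.74% passed with it, 3.12% as higher and 3.62% as lower. Over the 14884 named genes, each at its brightest cluster, 39.8% passed without the fold limit (16.6% higher and 23.2% lower) and 10.7% with it (3.82% higher and 6.89% lower). The members' share of 50% was thus not far from that of named genes in general. The median log2 fold change of the members was -0.02, beside 0.0019 over all named genes. For 5 members the ranges of OTX2 KD and scramble values did not meet, as was so for 42% of all clusters and 55.5% of named genes. The balance of directions over all clusters depended on scaling, with 7932 higher and 7034 lower as deposited but 6027 higher and 8611 lower after median centring.

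**Figure D1:**
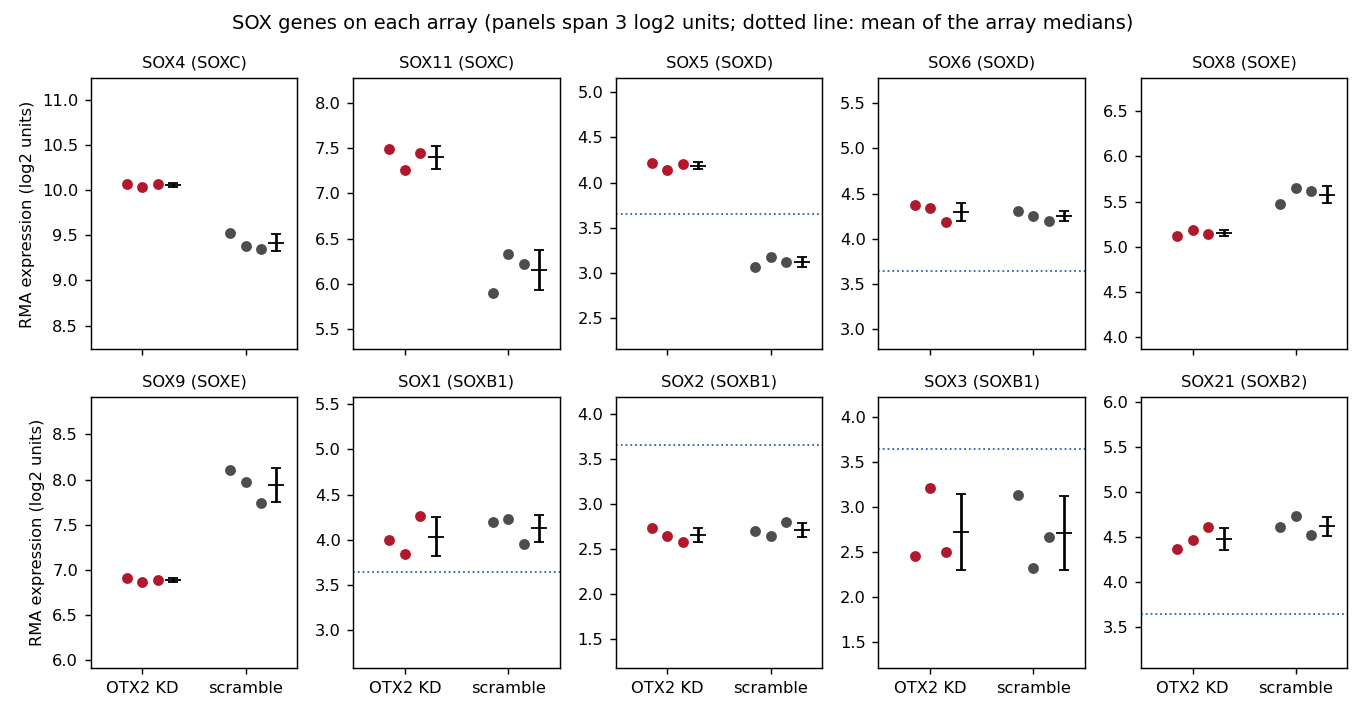
Expression of the 10 SOX genes on each array, in log2 units, with OTX2 KD arrays (red) left of scramble arrays (grey), group means with SD (black, n = 3) and the mean of the array medians as a dotted line where it falls within the panel. SOX4, SOX11 and SOX5 sat higher in every OTX2 KD array than in every scramble array, SOX8 and SOX9 sat lower in every one, and the groups of the other 5 genes overlapped.

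Values are RMA expression values on a log2 scale, in which 1 unit is a 2-fold difference. Levels of different genes are not compared, because probes differ in brightness. Array medians lay between 3.67 and 3.71 in OTX2 KD and between 3.60 and 3.61 in scramble, and a gene below the median of its array is called dim here. Across clusters, which are not independent replicates, Pearson's r was 0.990 to 0.993 within a group and 0.959 to 0.965 between groups. OTX2 itself was measured at 9.62, 9.57 and 9.57 in OTX2 KD, against 10.56, 10.56 and 10.55 in scramble. OTX2 RNA was therefore lower on each knockdown array, with a log2 fold change of -0.97 ± 0.073 (SE, adjusted p = 8.7e-05). Of 16 Group 3 and Group 4 markers, 11 had a named cluster, and 0 of these were dim on every array, but they moved with the knockdown as well. EOMES was above the array median on 1 array only, the second of scramble. Of the 11, 3 rose, 6 fell and 2 did not pass (median log2 fold change -0.78). The share called was 81.8%, beside 39.8% of all named genes. Their summed level on a linear scale was 2185 to 2332 in OTX2 KD and 4856 to 4918 in scramble. OTX2, the target of the siRNA, was among the 11 and among the 6 that fell, so its own fall is part of these values. The part of the markers in the changes of the SOX genes was not tested. In the bulk RNA of these cultures, fewer cells of a type and less RNA per cell cannot be told apart.

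Promoter sequences are shown for the risers of the SOXC and SOXD groups that the RefSeq promoter table holds, SOX4 and SOX5, and for a SOX6 start that carries the OTX2 homeodomain motif. The table (GRCh38.p14, 250 bases before to 50 after each annotated start) held 11 promoters for 7 of the 10 members and none for SOX8, SOX9 and SOX11. Each was searched on both strands for TAATCC and TAATCT (OTX2 homeodomain), ACAAT (the core bound by SOX factors) and CAGCTG (an E-box, the kind of site bound by neurogenic basic helix-loop-helix factors). TAATCC and TAATCT share their first 5 letters and cannot match at the same place. Capitals mark every match of these 4 motifs. The choice was made with the sequences in view, as TAATCT was added after a first search and a pair of motifs from that search is not capitalized (AACAATG, a longer SOX motif that contains ACAAT, and TATAAA, the TATA box).
SOX4, chr6:21593501-21593800, plus strand: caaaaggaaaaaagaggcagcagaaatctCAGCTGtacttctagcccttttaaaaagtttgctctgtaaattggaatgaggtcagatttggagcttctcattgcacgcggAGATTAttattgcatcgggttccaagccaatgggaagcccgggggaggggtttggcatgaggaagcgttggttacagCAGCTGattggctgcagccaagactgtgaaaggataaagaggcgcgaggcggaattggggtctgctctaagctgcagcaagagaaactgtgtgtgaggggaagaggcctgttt
SOX5, chr12:24562442-24562741, minus strand: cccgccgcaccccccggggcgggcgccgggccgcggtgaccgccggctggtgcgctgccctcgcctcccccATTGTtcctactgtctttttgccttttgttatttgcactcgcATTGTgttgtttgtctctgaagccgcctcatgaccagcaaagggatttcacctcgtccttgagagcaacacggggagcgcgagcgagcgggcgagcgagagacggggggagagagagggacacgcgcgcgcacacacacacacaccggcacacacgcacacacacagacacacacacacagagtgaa
SOX6 (1 of 5 starts), chr11:16402814-16403113, minus strand: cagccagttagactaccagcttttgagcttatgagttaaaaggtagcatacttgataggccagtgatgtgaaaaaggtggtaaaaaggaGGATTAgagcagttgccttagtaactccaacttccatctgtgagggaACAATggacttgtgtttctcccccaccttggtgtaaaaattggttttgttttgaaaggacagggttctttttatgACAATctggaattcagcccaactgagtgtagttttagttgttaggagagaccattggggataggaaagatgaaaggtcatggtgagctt

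The SOX4 promoter held TAATCT on the reverse strand, beginning at position -140 relative to the start, and CAGCTG at positions -221 and -63. SOX5 had ACAAT on the reverse strand at positions -179 and -137. Of the 11 member promoters, 1 (the SOX6 start shown) held TAATCC, at position -161 on the reverse strand, and 1 (SOX4) held TAATCT. Those letters are in 6.36% and 7.17% of all 35116 promoters of the table, ACAAT is in 27.4% and CAGCTG in 17.9%. AACAATG was in 3 member promoters (of SOX5 and SOX6) and in 3.33% of all, and TATAAA in 4 (of SOX6 and SOX21) and in 11.5% of all. ACAAT was in 6 member promoters, of SOX5 and all 5 SOX6 starts, and in none of the other 5 genes with a sequence. The matches describe these windows only, and binding was not measured on these arrays.

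SOX11, which promotes neuronal maturation as a SOXC factor, had the largest rise among the members. It was measured at 7.49, 7.25 and 7.45 in OTX2 KD, against 5.90, 6.32 and 6.22 in scramble. Every knockdown array was above every scramble array, and the lowest scramble value, on the first array of that group, was well below the other two. Mean expression was 7.40 ± 0.13 for OTX2 KD arrays and 6.15 ± 0.22 for scramble arrays (SD, n = 3 each). SOX11 rose 2.38-fold, a log2 fold change of 1.25 ± 0.13 (SE, 95% interval 0.94 to 1.56, adjusted p = 0.000405).

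SOX4, the other SOXC member, is a relative of SOX11 that shares much of its role in immature neurons. Its values were 10.06, 10.03 and 10.07 in OTX2 KD, against 9.53, 9.38 and 9.35 in scramble. The knockdown arrays were close together (SD 0.019), the scramble arrays less so (SD 0.095), and the groups did not overlap. SOX4 rose 1.55-fold, a log2 fold change of 0.64 ± 0.084 (SE, adjusted p = 0.00116). The 95% interval of SOX4, 0.44 to 0.83, ended below that of SOX11, and the difference between the 2 changes was not tested. Both SOXC genes rose, but SOX4 stayed under the 2-fold limit.

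SOX5, a SOXD factor that sets the order of neuron production in the mouse cortex, was measured at 4.22, 4.14 and 4.20 in OTX2 KD, against 3.06, 3.17 and 3.12 in scramble. All 3 knockdown arrays were above their array medians and all 3 scramble arrays below them, so SOX5 was dim in control cells, and since signal over background was not measured its fold is uncertain. SOX5 rose 2.10-fold, a log2 fold change of 1.07 ± 0.078 (SE, 95% interval 0.89 to 1.25, adjusted p = 7.47e-05). Its partner SOX6, which pairs with SOX5 in cartilage and acts in interneuron and oligodendrocyte precursors of the mouse, had 4.37, 4.34 and 4.18 in OTX2 KD, against 4.31, 4.25 and 4.20 in scramble. The SOX6 values of the groups overlapped, and its log2 fold change was 0.04 ± 0.088 (SE, 95% interval -0.16 to 0.25, adjusted p = 0.76). The SOXD genes thus gave intervals that do not meet, although the difference between them was not tested.

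SOX9, which specifies glia and sustains neural stem cells, was the member with the largest fall. Its values were 6.91, 6.87 and 6.89 in OTX2 KD, against 8.11, 7.97 and 7.74 in scramble. The knockdown arrays were nearly equal (SD 0.020), the scramble arrays were more spread (SD 0.18), and the groups were apart by more than either spread. SOX9 was 2.07-fold lower, with a log2 fold change of -1.05 ± 0.11 (SE, 95% interval -1.30 to -0.80, adjusted p = 0.000353).

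SOX8, a SOXE relative of SOX9 that acts with it in glial cells, was lower by a smaller amount. It had 5.12, 5.19 and 5.14 in OTX2 KD, against 5.47, 5.65 and 5.61 in scramble. All knockdown values were below all scramble values. SOX8 was 1.35-fold lower, with a log2 fold change of -0.43 ± 0.085 (SE, 95% interval -0.63 to -0.23, adjusted p = 0.00798). Neither SOX8 nor SOX9 was dim on any array. SOX10, the SOXE factor of oligodendrocytes and neural crest, was not among the 10 members, and had 5.14, 5.04 and 4.96 in OTX2 KD, against 4.81, 4.96 and 4.79 in scramble (log2 fold change 0.20 ± 0.092, SE, adjusted p = 0.166).

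The SOXB genes of progenitors did not pass the test. SOX2, a factor of neural and pluripotent stem cells, had 2.73, 2.65 and 2.58 in OTX2 KD, against 2.70, 2.64 and 2.80 in scramble. It was dim on all 6 arrays, and its log2 fold change was -0.06 ± 0.086 (SE, 95% interval -0.26 to 0.14, adjusted p = 0.667). SOX2-OT, the long noncoding RNA whose gene contains SOX2, was also dim on all arrays, at 2.78, 2.74 and 2.78 in OTX2 KD and 2.78, 2.77 and 2.69 in scramble (log2 fold change 0.02 ± 0.076, SE, adjusted p = 0.87). A change of SOX2 larger than its interval is therefore not seen here, and a dim cluster can understate a change.

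SOX3, the X-linked SOXB1 factor, was the least precisely measured member. Its values were 2.46, 3.21 and 2.51 in OTX2 KD, against 3.14, 2.32 and 2.67 in scramble. It was dim on all 6 arrays and the spread within a group (SD 0.42 in OTX2 KD and 0.41 in scramble) exceeded the difference between them. Its log2 fold change was 0.02 ± 0.26 (SE), and the 95% interval of -0.61 to 0.64 would hold changes as large as that of SOX8.

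SOX1, which marks the neural plate and early neural progenitors, had 3.99, 3.84 and 4.27 in OTX2 KD, against 4.19, 4.23 and 3.95 in scramble. The groups overlapped, and the log2 fold change was -0.09 ± 0.13 (SE, 95% interval -0.41 to 0.22, adjusted p = 0.664). SOX21, the SOXB2 factor, had 4.37, 4.46 and 4.61 in OTX2 KD, against 4.61, 4.73 and 4.52 in scramble. These values overlapped too, with a log2 fold change of -0.14 ± 0.10 (SE, 95% interval -0.37 to 0.094, adjusted p = 0.358). Both genes were above the median on every array, unlike SOX2 and SOX3. That median is taken over all clusters, of which 37519 have no gene symbol. A value above it thus does not show that SOX1 or SOX21 was over background, which was not measured.

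Of the 9 SOX genes outside the members, 0 passed by limma at an adjusted p of 0.05, and 1, SOX12, had an unadjusted p below 0.05. SOX12, the third SOXC gene, had 7.64, 7.61 and 7.78 in OTX2 KD, against 8.04, 7.94 and 7.84 in scramble. It was thus lower on each knockdown array while SOX4 and SOX11 were higher, with a log2 fold change of -0.26 ± 0.093 (SE, 95% interval -0.48 to -0.043, adjusted p = 0.0786). SOX12 passed under 4 of the alternative settings, with adjusted p-values of 0.0278 after median centring, 0.0335 among brighter clusters, 0.0349 among clusters with a symbol and 0.0245 with trend and robust variance. The second, less bright cluster of SOX12 was at -0.11 (log2, adjusted p = 0.49). The other 8 genes, SOX7, SOX10, SOX13, SOX14, SOX15, SOX17, SOX18 and SOX30, lay between -0.23 (SOX7) and 0.20 (SOX10), and each interval held 0.

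**Figure D2:**
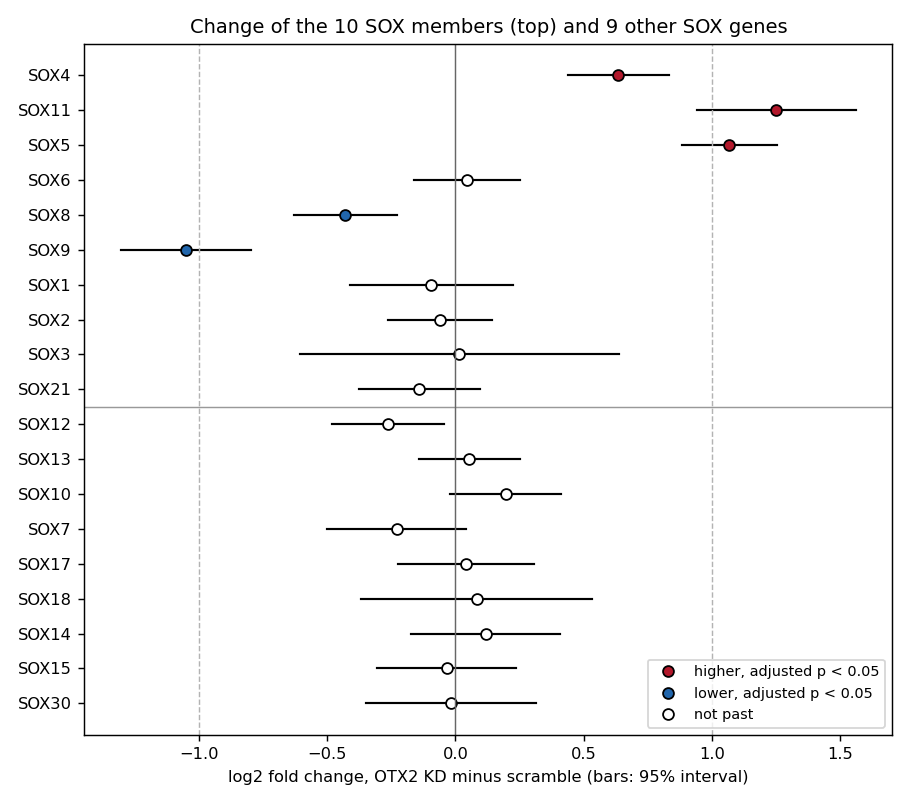
Log2 fold change (OTX2 KD minus scramble, n = 3 arrays each) of the 10 SOX members above the line and of 9 other SOX genes below it, with 95% intervals; dashed lines mark a 2-fold change. SOX11 at 1.25, SOX5 at 1.07 and SOX4 at 0.64 lie to the right of 0, SOX9 at -1.05 and SOX8 at -0.43 to the left, and all open circles did not pass an adjusted p of 0.05.

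For the 3 members past the 2-fold limit, the named genes with the most similar pattern over the 6 arrays were found by the root mean square difference of log2 values, each gene centred on its own scramble mean. TANK and PTBP2 were nearest to SOX5 (0.036 and 0.040 log2 units). TSKU and CCDC124 were nearest to SOX9 (0.041 and 0.053), and CYLD and NBEA to SOX11 (0.073 and 0.075). TANK had 5.19, 5.05 and 5.21 in OTX2 KD, against 4.06, 4.17 and 4.12 in scramble, and TSKU had 7.07, 6.94 and 6.99 in OTX2 KD, against 8.21, 8.08 and 7.93 in scramble. The measure selects genes with a group difference of like size, and the order of the arrays within a group was not always shared (in OTX2 KD the highest array was the first for SOX5 and the third for TANK).

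Genes linked to each SOX group were read from lists, which were chosen with earlier results of these data known. Immature neuron genes, several of which SOXC factors activate, rose most. Of 24 listed, 16 had a named cluster, and 10 rose, 2 fell and 4 did not pass, beside 16.6% higher and 23.2% lower among all named genes. Their median log2 fold change was 1.62. The paper already reports that neuronal differentiation and axon guidance genes were enriched after knockdown, and a part of SOXC factors in these rises was not tested. The netrin receptor DCC had 9.57, 9.60 and 9.60 in OTX2 KD, against 5.20, 5.24 and 5.39 in scramble (log2 fold change 4.32 ± 0.084, SE). The neuronal transcription factor NHLH1 (4.28) and the dendritic microtubule protein MAP2 (4.11) rose by similar amounts on the log2 scale.

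TEAD2, a Hippo pathway factor that SOXC proteins activate in the mouse embryo, went the other way from SOX4 and SOX11. It had 6.49, 5.64 and 6.41 in OTX2 KD, against 8.26, 8.31 and 8.03 in scramble, which is a log2 fold change of -2.02 ± 0.22 (SE, adjusted p = 0.000518). The homeodomain factor ISL1 also fell (-0.77) at its brighter cluster, but its second cluster was at 0.0045 (log2, adjusted p = 0.981).

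Partners and companions of the SOXB1 factors in neural progenitors were read next. Of 27 listed, 19 had a named cluster, and 4 rose, 10 fell and 5 did not pass (median log2 fold change -0.50), beside 16.6% higher and 23.2% lower among all named genes, where calls also leaned lower. PROM1, a membrane protein used as a stem cell marker, had 6.29, 6.13 and 6.39 in OTX2 KD, against 9.09, 9.05 and 9.21 in scramble (log2 fold change -2.85 ± 0.099, SE). The hedgehog effector GLI3 (-2.04) and the intermediate filament vimentin, VIM (-1.49), also fell, and the other clusters of VIM fell as well (-0.72 and -1.58). GLI3 had 4.12, 3.40 and 4.36 in OTX2 KD and was dim on the second of these arrays, so that its fold is uncertain.

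PAX6, which partners SOX2 in the lens and marks progenitors and cerebellar granule cells, was the largest riser of that list. It had 5.02, 4.87 and 4.62 in OTX2 KD, against 3.48, 3.11 and 3.12 in scramble, a 3.03-fold rise (log2 fold change 1.60 ± 0.15, SE). PAX6 was dim in scramble, so that its fold is uncertain. The POU factor POU3F3 (1.10) and the LIM homeodomain factor LHX2 (0.97) rose too, and the second cluster of LHX2 did not pass (0.15, adjusted p = 0.51).

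Of 26 listed target genes of SOXE and SOXD factors in glia and cartilage, 17 had a named cluster, and 5 rose, 3 fell and 9 did not pass (median log2 fold change -0.04). The share called, 47.1%, was near the 39.8% of all named genes. The receptor ERBB3, which SOX10 activates in neural crest, fell most, at 4.98, 4.66 and 4.84 in OTX2 KD, against 6.10, 6.24 and 5.93 in scramble (log2 fold change -1.26 ± 0.12, SE). MITF (-0.76), a pigment cell factor that was dim on every array, and MYRF (-0.47), an oligodendrocyte factor, fell as well, and the call of MYRF was lost without scramble replicate 2 (adjusted p = 0.0554) or replicate 3 (adjusted p = 0.0547). The nuclear factors NFIB (0.94) and NFIX (0.83) and the factor OLIG2 (0.78) rose, whereas SOX9 fell. NFIB and NFIX are relatives of NFIA, a protein that acts with SOX9 at the onset of gliogenesis in the mouse spinal cord. NFIA itself rose by less (0.37, limma adjusted p = 0.00977).

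**Figure D3:**
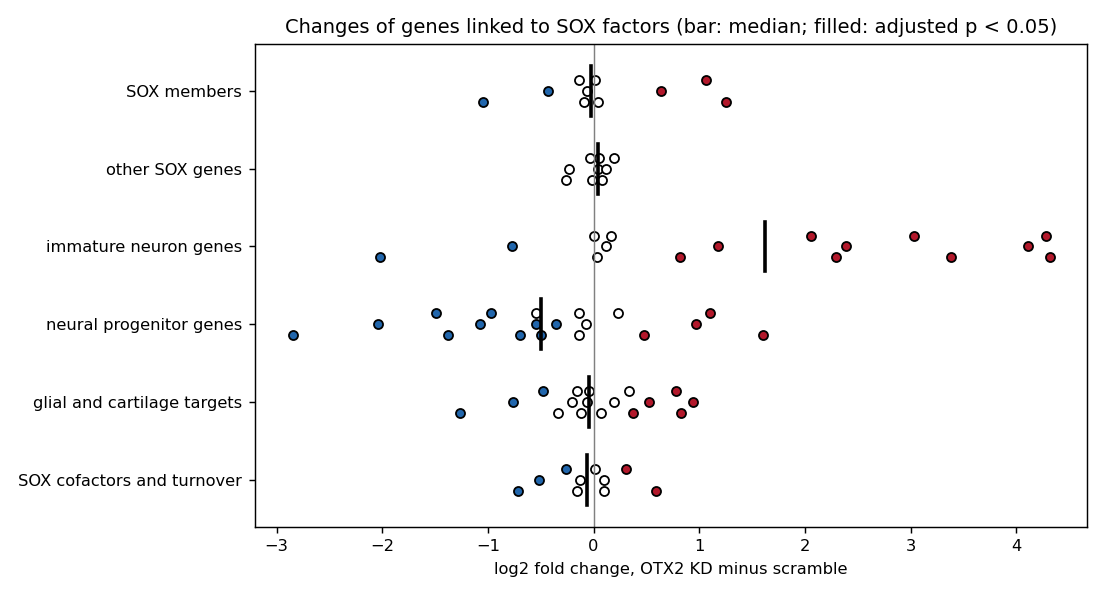
Log2 fold change (OTX2 KD minus scramble) of each measured gene of the SOX members and of 5 lists of linked genes, with the median as a bar and genes past an adjusted p of 0.05 filled (red higher, blue lower). Immature neuron genes reach 4.32 with a median of 1.62, progenitor genes have a median of -0.50, and the other SOX genes stay within -0.26 and 0.20.

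Proteins that act with SOX factors or carry them to the nucleus were read as well. Of 20 listed, 10 had a named cluster, and 2 rose, 3 fell and 5 did not pass (median log2 fold change -0.06). The share called, 50%, was near the 39.8% of all named genes. The acetyltransferases EP300 (0.60 ± 0.083, SE) and CREBBP (0.31 ± 0.081, SE) rose. PARP1 (-0.72), the corepressor CTBP2 (-0.51), which binds SOX6, and the import receptor KPNB1 (-0.26) fell. The call of CREBBP was lost without OTX2 KD replicate 2 or 3 or any 1 scramble array (adjusted p = 0.0579 to 0.0832) and after median centring (adjusted p = 0.0835). The call of KPNB1 was lost without any 1 of the 6 arrays (adjusted p = 0.0684 to 0.11) and after repeated quantile normalization (adjusted p = 0.14).

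Markers of other cell types were read because SOX9, SOX8 and SOX10 also label glia. Of those measured, 2 astrocyte, 2 oligodendrocyte, 2 fibroblast, 3 endothelial and 1 leukocyte markers were dim on every array. A dim cluster can understate a change. Of 4 measured astrocyte markers, among them GFAP and AQP4, 0 passed by limma and 0 had an unadjusted p below 0.05, and their summed level on a linear scale was 52.3 to 52.8 in OTX2 KD and 48.5 to 50.5 in scramble. Of 5 oligodendrocyte markers, OLIG1 (0.53) and OLIG2 (0.78) rose and MBP, MAG and MOBP did not pass, with a summed level of 110 to 127 in OTX2 KD and 80.9 to 89.9 in scramble. Of 3 fibroblast markers 0 passed (0 at an unadjusted p below 0.05), with a summed level of 29.5 to 30.0 in OTX2 KD and 25.5 to 28.7 in scramble. Among 6 endothelial markers FLT1 (0.43) rose, with a summed level of 99.4 to 107 in OTX2 KD and 86.6 to 94.0 in scramble. Of 3 leukocyte markers, CD68 (1.13) rose and CD14 and CSF1R did not pass, with a summed level of 89.3 to 94.4 in OTX2 KD and 51.4 to 54.3 in scramble. Called were 40% of the oligodendrocyte, 33.3% of the leukocyte and 16.7% of the endothelial markers, beside 39.8% of all named genes. The part of these markers in the changes of the SOX genes was not tested.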

How the data were processed

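RNA from D283 tumorspheres was hybridized by the authors to Affymetrix HuGene 2.0 st arrays. The authors deposited log2 values per transcript cluster, made by RMA in Affymetrix Expression Console, which subtracts background, equalizes the arrays by quantiles and summarizes probes by median polish. Such a summary compresses changes of dim clusters, and the number of arrays limits the precision. No detection calls or scan batches were given in the sources used here. Replicates were biological per the study's methods.

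Gene names came from the platform annotation (16098 of 53617 clusters had 1 symbol, 0 had several). The groups were compared with limma 3.58.1 (R 4.3.3) by a two-sided moderated test with lmFit and eBayes, with 4 residual and 3.17 prior df, on all clusters without a filter and with Benjamini-Hochberg adjustment over all of them. The fit was tested on simulated data. Linked genes (6 lists, brightest cluster per gene) were described by counts and medians, and markers by 6 further lists. Named genes were OTX2, all SOX genes, SOX2-OT, the 3 largest rises and falls past adjusted p 0.05 of each other linked list, and the 2 genes of most similar pattern for each member past 2-fold. Marker genes with values, and NFIA, were named after their values were seen. The members and lists were chosen with earlier results of these data known. Figures were drawn with matplotlib 3.10.9.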

Additional observations from a re-analysis of the deposited data

How the results depend on the processing

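The calls of SOX5, SOX9 and SOX11 at an adjusted p below 0.05 held under every alternative in which their clusters were tested, with log2 fold changes of 0.98 to 1.10 for SOX5, -1.15 to -0.97 for SOX9 and 1.13 to 1.34 for SOX11. SOX4 (0.55 to 0.69) and SOX8 (-0.52 to -0.39) kept their calls except in the test against a 1.5-fold change (adjusted p of 1 for both). The restriction to brighter clusters left out SOX2, SOX3 and SOX5. Signal over background was not measured, which limits dim genes and those not far above the array median.

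In the test against a 1.5-fold change, 3401 clusters differed (1507 higher, 1894 lower), 2 SOX members rose and 1 fell, 3 progenitor genes rose and 4 fell, 9 immature neuron genes rose and 1 fell, 1 glial or cartilage target rose and 1 fell, and 0 cofactors rose and 0 fell. With a 2-fold limit, 3613 clusters differed (1672 higher, 1941 lower), 2 SOX members rose and 1 fell, 2 progenitor genes rose and 5 fell, 9 immature neuron genes rose and 1 fell, 0 glial or cartilage targets rose and 1 fell, and 0 cofactors rose and 0 fell. Among clusters with 1 symbol, where fewer clusters were tested, 7367 differed (3240 higher, 4127 lower). Of the other SOX genes 1 (SOX12) was lower after median centring, among brighter clusters, among clusters with 1 symbol and with trend and robust variance.

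Deviations from the group means of arrays with the same replicate number in their titles correlated with r of -0.056, -0.023 and -0.00072. No shared effect of the replicate number was thus seen, but these values cannot tell whether same-numbered arrays were prepared together. With the replicate block, 12980 clusters differed, 3 SOX members rose and 2 fell, and 1 cofactor rose, as 1 did after median centring (CREBBP had an adjusted p of 0.0691 with the block, and KPNB1 of 0.096). Leaving out each array in turn gave 12129 to 13128 clusters, 3 SOX members higher and 2 lower each time, and 1 to 2 cofactors higher.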
